A study of Homo sapiens with 12 samples.

Results

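Genes whose symbols begin with LINC are annotated as long intergenic noncoding RNAs. They were taken from the gene count table as all rows whose symbol is LINC followed by digits only, or begins with LINC and a hyphen, and 112 of 16389 rows met this rule. The rule used names and no measured value. HepG2, an established human liver cancer cell line, was grown for 48 h in medium with 5.5 mM glucose (LG) or 20 mM glucose (HG). Cells in each medium then received 1 mM valproic acid (VPA) for 12 h (LGV and HGV) or were left untreated, and 3 libraries were made per group. All 4 groups come from this 1 cancer line, kept in the same medium with fetal bovine serum, and the libraries were made from RNA selected for poly(A) tails. The labels do not say whether the 3 libraries of a group came from separate cultures, so the p-values measure the spread between these libraries, which may be technical.

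Long noncoding RNAs are transcribed and processed much like messenger RNAs but are not known to be translated into proteins of ordinary length. Some act as scaffolds or decoys for proteins in the nucleus or cytoplasm, some affect genes next to them, and a few have turned out to encode very short proteins (microproteins). VPA inhibits histone deacetylases, enzymes that remove acetyl groups from histones and so act on chromatin, where many of these RNAs are themselves made.

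Of the 112 LINC genes, 110 were placed by identifier on GRCh37 with a later annotation (GENCODE 44), and they lay on 22 different chromosomes. This annotation calls 90 of them long noncoding RNAs and 12 protein-coding genes. The exons of 58 overlapped those of another annotated gene and the exons of 20 overlapped a protein-coding gene. Whether the strand of the reads was used for counting is not stated, and reads from overlapping exons can then be assigned to either gene or dropped. LINC genes were weakly expressed. Their median over genes of the mean over 12 libraries was 1.41 CPM (counts scaled to library size with TMM factors), against 13.6 CPM over all rows of the table. They numbered 41 under 1 CPM, 52 between 1 and 10 CPM, and 19 at 10 CPM or more. Since the deposited table holds only genes with an average of 10 reads or more per library, LINC genes below that level are not analysed here.

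Total counts per library ran from 29798442 to 45572694, and a count of 3 reads, used as a floor for genes close to absence, stood for 0.0713 to 0.112 CPM. This floor covers counting error only. The 11 hepatocyte markers examined, among them ALB and APOB, were present at 32.1 to 29400 CPM. They summed to 52200 to 58800 CPM in LG, 53100 to 61000 in HG, 40100 to 41100 in LGV and 47100 to 61700 in HGV. Every LGV library thus lay below every library of the other groups. Of the 5 fibroblast markers 2 had rows (COL1A1 and PDGFRB), summing to 37.9 to 58.3 CPM in LG, 18.8 to 29.3 in HG, 32.2 to 40.5 in LGV and 26.3 to 32.9 in HGV. Of the 3 endothelial markers 2 had rows (VWF and CDH5), summing to 2.21 to 4.85 CPM over all libraries. PECAM1 and the other fibroblast markers had no row. The fibroblast sum was lower in every HG library than in every LG library, and the endothelial sum was higher in HGV (3.83 to 4.85 CPM) than in LGV (2.24 to 3.09 CPM). The part of these marker differences in the results was not tested. Fewer cells that make an RNA and less of it per cell cannot be told apart in such bulk samples. Compared with the other libraries of its group, LGV replicate 1 had values for LINC genes that were higher by a median of 0.23 on the log2 scale, and LGV replicate 2 lay at -0.16. The other 10 libraries lay between -0.13 and 0.13.

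Promoters are shown for 4 members, 2 with large rises and 2 with large falls after VPA, which were chosen with their values known. Each window runs from 250 bases before the outermost annotated start to 50 bases after it on GRCh37, 5′ to 3′ on the strand of the gene. Which start these cells used was not measured. Capitals mark matches, on either strand, to TATAAA (the TATA box), GGGCGG (the GC box), CCAAT (the motif of nuclear factor Y), CACGTG (an E-box) or TGACGTCA (the cyclic AMP response element), none of which contains another, and a match on the other strand appears as its reverse complement. LINC00883 (chr3:106939341-106939640, plus strand) and LINC00654 (chr20:5507306-5507605, minus strand) rose, and LINC01134 (chr1:3816661-3816960, plus strand) and LINC01124 (chr2:171571028-171571327, minus strand) fell.
LINC00883: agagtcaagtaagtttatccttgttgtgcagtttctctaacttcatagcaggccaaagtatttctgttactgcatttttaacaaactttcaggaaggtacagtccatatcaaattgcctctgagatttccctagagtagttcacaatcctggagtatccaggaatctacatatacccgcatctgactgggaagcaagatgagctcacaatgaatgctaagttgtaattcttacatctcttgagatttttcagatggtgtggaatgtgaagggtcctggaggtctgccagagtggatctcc
LINC00654: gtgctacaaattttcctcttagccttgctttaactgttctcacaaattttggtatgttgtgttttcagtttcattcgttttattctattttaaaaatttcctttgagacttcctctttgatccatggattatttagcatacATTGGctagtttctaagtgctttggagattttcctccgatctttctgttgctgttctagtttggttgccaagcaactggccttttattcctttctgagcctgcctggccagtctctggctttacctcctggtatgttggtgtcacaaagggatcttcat
LINC01134: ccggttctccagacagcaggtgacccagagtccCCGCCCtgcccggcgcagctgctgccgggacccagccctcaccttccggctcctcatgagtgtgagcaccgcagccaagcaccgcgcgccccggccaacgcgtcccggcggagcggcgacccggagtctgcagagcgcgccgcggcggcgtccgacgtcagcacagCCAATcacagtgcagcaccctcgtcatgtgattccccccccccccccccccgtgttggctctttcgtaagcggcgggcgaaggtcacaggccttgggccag
LINC01124: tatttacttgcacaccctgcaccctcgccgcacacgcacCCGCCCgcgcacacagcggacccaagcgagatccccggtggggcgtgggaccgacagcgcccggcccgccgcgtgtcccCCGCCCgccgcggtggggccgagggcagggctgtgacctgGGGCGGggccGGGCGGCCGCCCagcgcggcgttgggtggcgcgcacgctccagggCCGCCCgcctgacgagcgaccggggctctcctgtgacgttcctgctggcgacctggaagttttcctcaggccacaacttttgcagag
The windows differed widely in base composition, and since windows of other members with large rises are not shown, no difference between members that rose and fell can be read from these 4. LINC00883 had 1 CG dinucleotide and a GC content of 41.3%, and LINC00654 had 2 and 39.0%. LINC01134 and LINC01124 had 32 and 38 CG dinucleotides. A match is only a match of letters, and no factor was measured on these promoters.

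Over the 110 placed LINC genes, the median GC content of this window was 54.7%, against 61.7% for the 16068 rows of the table that could be placed. The median ratio of observed to expected CG dinucleotides was 0.482 for LINC genes and 0.756 for all placed rows. GGGCGG was found in 36.4% of LINC windows and in 57.0% of all windows, TATAAA in 13.6% and 8.33%, CCAAT in 38.2% and 35.6%, CACGTG in 7.27% and 8.73%, and TGACGTCA in 2.73% and 2.45%. For the 14 members that were higher with VPA in both media, described below, the median CG ratio was 0.22. It was 0.558 for the 13 members that were lower in both. These are descriptions of the members, and no test was run on them.

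LINC00657, or NORAD, a cytoplasmic RNA that binds PUMILIO proteins, took the most reads. It had 311, 379 and 334 CPM in LG, 362, 249 and 292 in HG, 294, 316 and 333 in LGV, and 277, 188 and 271 in HGV. It thus made up between 21.3% and 37.5% of the summed CPM of all LINC genes in a library. Per kb of annotated exon, the highest mean level over the 12 libraries was that of LINC00493 (62.8 CPM per kb), which is now known to encode the mitochondrial microprotein SMIM26. LINC00657 followed at 55.6 CPM per kb and LINC00261 at 15.4 CPM per kb. LINC00680, LINC00888 and LINC00674 had 56.4, 37.7 and 16.4 CPM per kb, but the later annotation gives them only 181, 421 and 160 exonic bases, so their values per length are uncertain. LINC00526, LINC00963, LINC00998 and LINC00176 completed the 10 highest, with 5.53, 4.69, 4.26 and 4.07 CPM per kb.

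The summed level of the 112 LINC genes was 1004 to 1082 CPM in LG and 1013 to 1148 CPM in HG, which overlap. With VPA it was 882.1 to 911.7 CPM in LGV and 880.1 to 964.9 CPM in HGV, and every library with VPA lay below every library without it. Without LINC00657 the sum was 683.5 to 748.0 CPM in LG, 764.2 to 785.3 in HG, 555.9 to 618.0 in LGV and 663.2 to 692.6 in HGV. It was then still lower with VPA within each medium, but HGV overlapped LG. These separations depend on the TMM factors. As a share of raw counts, LINC genes took 0.09% to 0.104% in LG and 0.0855% to 0.0998% in LGV. In high glucose they took 0.102% to 0.114% in HG and 0.092% to 0.106% in HGV, so the ranges overlapped in both media.

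**Figure D1:**
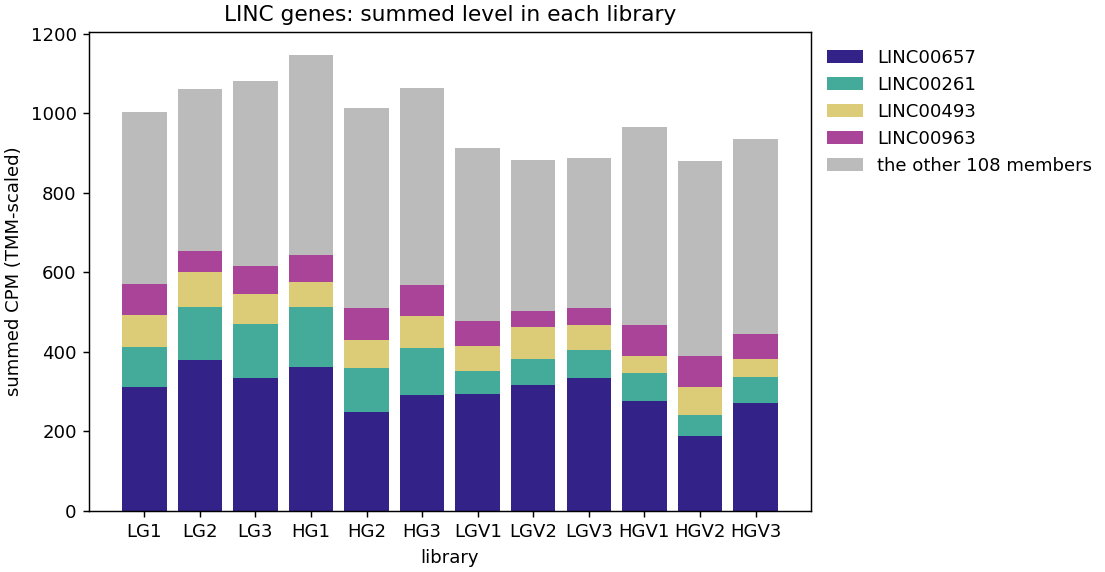
Stacked bars give the summed level of the 112 LINC genes in each of the 12 libraries (x axis) in CPM scaled with TMM factors (y axis), with the 4 members that took the most reads shown apart. The 6 bars of LGV and HGV end between 880.1 and 964.9 CPM, below the 6 bars of LG and HG at 1004 to 1148 CPM. As shares of raw counts, without TMM factors, the groups overlap.

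The effect of VPA was compared in each medium with edgeR's quasi-likelihood test, which covered every gene that averaged 10 reads or more in the 6 libraries compared. Calls were made at a Benjamini-Hochberg adjusted p (FDR) up to 0.05 over all genes tested. In high glucose (HGV against HG), 108 LINC genes were tested, of which 25 were higher with VPA (23.1%) and 21 were lower (19.4%). Among all 16188 genes tested, 25.8% were higher and 20.2% were lower, or 46.1% in either direction. In low glucose (LGV against LG), 19 of 108 LINC genes were higher (17.6%) and 17 were lower (15.7%), where all genes gave 21.7% and 19.9%, or 41.6% in either direction. The median log2 fold change of the LINC genes tested was 0.05 in high glucose and 0.02 in low glucose, and that of all genes 0.02 and -0.01. Scaling to library size without TMM factors moved the median of all genes by 0.12 and 0.16, and the LINC calls then split into 32 higher and 17 lower in high glucose and 22 and 9 in low glucose. Shares of all genes called with that scaling are not given here.

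These shares varied with the level of a gene. In high glucose the share of LINC genes called lower was 13.5% under 1 CPM, 19.2% between 1 and 10 CPM and 31.6% at 10 CPM and over, where all genes gave 6.43%, 14.2% and 27.3%. The share called higher was 21.6%, 26.9% and 15.8% in the same ranges, where all genes gave 28.1%, 34.0% and 21.1%. In low glucose, 8.11%, 17.3% and 26.3% of LINC genes were lower, where all genes gave 5.21%, 12.2% and 27.8%, and 13.5%, 23.1% and 10.5% were higher, where all genes gave 22.2%, 29.9% and 17.5%. No test compared LINC genes with all genes.

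A member that is near absence in 1 group passes the filter on counts only through the other group. In high glucose this held for 5 of the 25 higher and 4 of the 21 lower members, and in low glucose for 6 of the 19 higher and 1 of the 17 lower, where the lower group had a mean count under 10. The 4 LINC genes not tested in each of these comparisons averaged under 10 reads over the 6 libraries, although some averaged more in 1 of the groups.

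The HGV and HG libraries are not shared with the LGV and LG libraries. In both media 14 members were higher with VPA, which is 56.0% of the 25 and 73.7% of the 19. These were LINC00087, LINC00094, LINC00152, LINC00483, LINC00494, LINC00652, LINC00654, LINC00659, LINC00883, LINC00957, LINC00992, LINC01021, LINC01091 and LINC01137. In both media 13 members were lower, 61.9% of the 21 and 76.5% of the 17. These were LINC00174, LINC00176, LINC00242, LINC00261, LINC00338, LINC00526, LINC00574, LINC00909, LINC00938, LINC01071, LINC01124, LINC01125 and LINC01134. No member was called in opposite directions. LINC00483, LINC00883, LINC00087, LINC00992, LINC00652 and LINC00957 had a mean count under 10 in LG, and LINC00483 and LINC00883 also in HG. LINC01071 had a mean count under 10 in LGV. The overlap over all genes tested is not given here, so these shares are not shown to be particular to LINC genes.

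**Figure D2:**
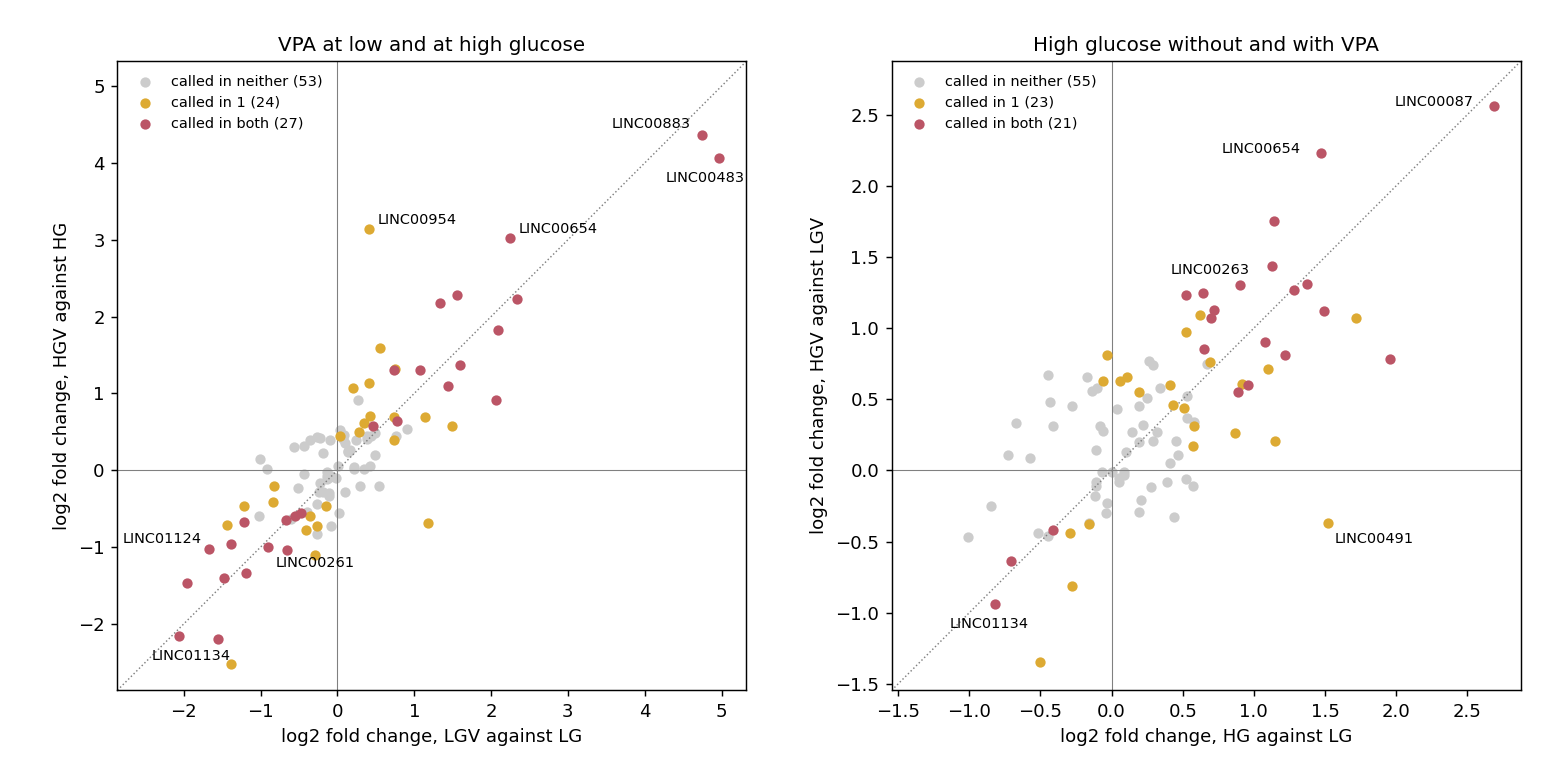
Each point is 1 LINC gene, placed by its log2 fold changes in 2 comparisons that share no libraries, with VPA at low and high glucose on the left (104 members tested in both) and high glucose without and with VPA on the right (99 members). Colours give how many of the 2 comparisons called the gene (FDR up to 0.05), and the dotted line marks equal values. Points called in both lie where both values are above 0 or both are below 0, while LINC00954 on the left and LINC00491 on the right lie far from the line.

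LINC00483 and LINC00883 came from near absence. LINC00483 (chromosome 17, 48838390 to 48844918, minus strand), now annotated as the protein-coding gene ANKRD40CL, had 0.0374, 0.025 and 0.0255 CPM in LG, which is 1 read per library, and 1.35, 0.747 and 0.881 CPM in LGV. In high glucose it had 0.0951, 0.179 and 0.028 CPM in HG and 1.78, 1.47 and 1.91 CPM in HGV. All 6 libraries with VPA were above all 6 without it. In low glucose 101 reads were counted with VPA and 3 without, a ratio of 35.1 after scaling (95% interval 11.7 to 173, counting error only). In high glucose the log2 fold change was 4.06 (standard error 0.42, FDR 7.22e-06).

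LINC00883 (chromosome 3, 106939591 to 107067311, plus strand), now named DUBR, is a noncoding RNA whose exons overlap those of LINC00882 on the other strand. Its levels were 0.0374, 0.025 and 0.0766 CPM in LG, 1.74, 1.17 and 1.12 in LGV, 0.127, 0.12 and 0.168 in HG, and 2.76, 2.85 and 3.18 in HGV. With 136 reads in LGV and 5 in LG the ratio was 28.4 (95% interval 11.9 to 88.8, counting error only). The rise in high glucose was 4.36 on the log2 scale (standard error 0.29, FDR 2.06e-07). Over the 4 group means of log2 CPM, LINC00883 had the pattern most like that of LINC00483 (Pearson r = 0.999 over 4 groups). LINC01091 (0.994), LINC00659 (0.98), LINC00992 (0.979) and LINC01137 (0.974) followed. These are the 5 highest values over all members, and LINC00483 was the reference because its VPA change was the largest. With only 4 points, which share libraries and depth, high values were likely from the start and serve as a description only.

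LINC00654 (chromosome 20, 5463382 to 5507355, minus strand), which overlaps LINC01729 on its own strand, was higher with VPA and also higher with glucose. Its CPM were 1.05, 0.649 and 1.12 in LG, 2.57, 3.05 and 2.04 in HG, 6.78, 2.79 and 3.55 in LGV, and 20.8, 21.3 and 20.2 in HGV. The 4 groups did not overlap except that LGV replicate 2 lay within the HG range. VPA raised it by 3.02 on the log2 scale in high glucose (FDR 4.21e-08, standard error 0.16) and by 2.24 in low glucose (standard error 0.35, FDR 0.000125).

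LINC00087, now annotated as the protein-coding gene SMIM10L2B (chromosome X, 134229015 to 134232742, minus strand), was likewise lowest in LG and highest in HGV. It had 0.15, 0.0499 and 0.153 CPM in LG, 0.697, 0.837 and 0.7 in HG, 0.84, 0.292 and 0.614 in LGV, and 3.56, 3.57 and 3.41 in HGV. The 3 LG libraries were at or near the floor. It rose with VPA by 2.23 in high glucose (standard error 0.21, FDR 3.08e-06) and by 2.34 in low glucose (standard error 0.54, FDR 0.00299) on the log2 scale. It has a close paralog, SMIM10L2A. The authors counted only reads with a mapping quality of at least 10, a filter that reads common to both genes may fail. Its level may therefore be too low.

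The other members named among the largest rises had log2 fold changes of 2.28 for LINC00659 (FDR 0.000131) and 3.14 for LINC00954 (FDR 1.51e-05) in high glucose, and of 2.09 for LINC00992 (FDR 0.00146) and 2.07 for LINC00652 (FDR 0.000488) in low glucose. Mean counts without VPA were 4.67 for LINC00954 in HG, and 5.67 for LINC00992 and 9.0 for LINC00652 in LG. These 3 members thus passed the filter only through the group with VPA. LINC00659 had 0.598, 0.25 and 0.766 CPM in LG and 1.74, 1.04 and 1.89 in LGV, and 0.317, 0.807 and 0.336 in HG against 2.33, 2.0 and 2.82 in HGV. In both media its ranges with and without VPA were apart.

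LINC00094, now annotated as the protein-coding gene BRD3OS and overlapping BRD3 on the other strand, rose from 7.07, 7.39 and 9.16 CPM in HG to 19.2, 20.9 and 18.7 in HGV (log2 fold change 1.31, standard error 0.14, FDR 8.48e-06) and from 8.0, 5.69 and 8.63 CPM in LG to 13.6, 10.9 and 12.2 in LGV (log2 fold change 0.73, standard error 0.19, FDR 0.00602). LINC00494 rose by 1.30 (FDR 3.5e-05) in high glucose, from 5.96, 5.11 and 4.0 CPM to 12.1, 11.9 and 13.0, and by 1.07 (FDR 0.00127) in low glucose, from 3.18, 2.6 and 3.93 CPM to 8.13, 5.98 and 6.19. Both genes, which were chosen after their values were seen because they lie above 1 CPM in every group, had ranges with and without VPA that were apart in both media.

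Among members that fell, LINC01134 (chromosome 1, 3816911 to 3833789, plus strand) had the largest decrease in low glucose. It had 7.1, 7.49 and 6.18 CPM in LG, 4.31, 3.32 and 3.98 in HG, 1.62, 1.82 and 1.49 in LGV, and 0.92, 1.09 and 0.559 in HGV. The 4 groups did not overlap. Its log2 fold change with VPA was -2.06 in low glucose (standard error 0.21, FDR 2.63e-06) and -2.16 in high glucose (standard error 0.25, FDR 1.9e-05).

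LINC01124 (chromosome 2, 171568961 to 171571077, minus strand), a gene of 1 exon, fell from 7.93, 6.86 and 11.3 CPM in LG to 2.55, 2.86 and 2.75 in LGV. In high glucose it fell from 12.3, 13.2 and 14.5 CPM to 5.61, 7.68 and 6.38. The log2 fold changes were -1.67 (standard error 0.22, FDR 3.23e-05) and -1.02 (standard error 0.15, FDR 0.000135). LINC00176, now annotated as the protein-coding gene C20orf204, had 30.4, 13.6 and 40.1 CPM in LG and 9.75, 5.16 and 6.59 in LGV. It had 34.3, 42.7 and 41.9 CPM in HG and 14.9, 14.4 and 13.6 in HGV. LG replicate 2 lay far below the other LG libraries, but the ranges did not overlap in either medium. Its log2 fold changes were -1.96 (FDR 0.000185) and -1.47 (FDR 1.23e-06).

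LINC00526, whose exons overlap LINC00667 on the other strand, went from 15.0, 16.9 and 15.1 CPM in LG to 4.86, 6.27 and 5.55 in LGV, and from 13.8, 15.3 and 15.0 in HG to 4.66, 6.8 and 5.26 in HGV. Its log2 fold changes were -1.48 (FDR 6.9e-06) and -1.40 (FDR 1.59e-05). LINC01071, now named TUSC8, had 2.12, 2.33 and 2.77 CPM in HG and 0.552, 0.428 and 0.618 in HGV, a log2 fold change of -2.19 (FDR 1.91e-05). In low glucose its ranges overlapped (0.823, 0.524 and 0.893 CPM in LG against 0.57, 0.065 and 0.107 in LGV), and its call (log2 fold change -1.56, FDR 0.0375) was lost when LG replicate 1 or 3 or LGV replicate 2 or 3 was left out (FDR 0.12, 0.0747, 0.126 and 0.162). LINC00973 fell by 2.52 on the log2 scale in high glucose (FDR 0.000423), from 0.444, 0.718 and 0.616 CPM to 0.092, 0.119 and 0.0882, close to the floor. LINC00607 fell by 1.70 in high glucose (FDR 0.0155), a call lost without HG replicate 1 (FDR 0.0644), and LINC00326 fell by 1.67 (FDR 0.00853). LINC00973, LINC00607 and LINC00326 had mean counts of 3.67, 5.33 and 7.67 in HGV and passed the filter only through HG. In low glucose LINC01119 fell by 1.44 (FDR 0.0043), from 1.38, 0.848 and 0.97 CPM in LG to 0.48, 0.325 and 0.347 in LGV.

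**Figure D3:**
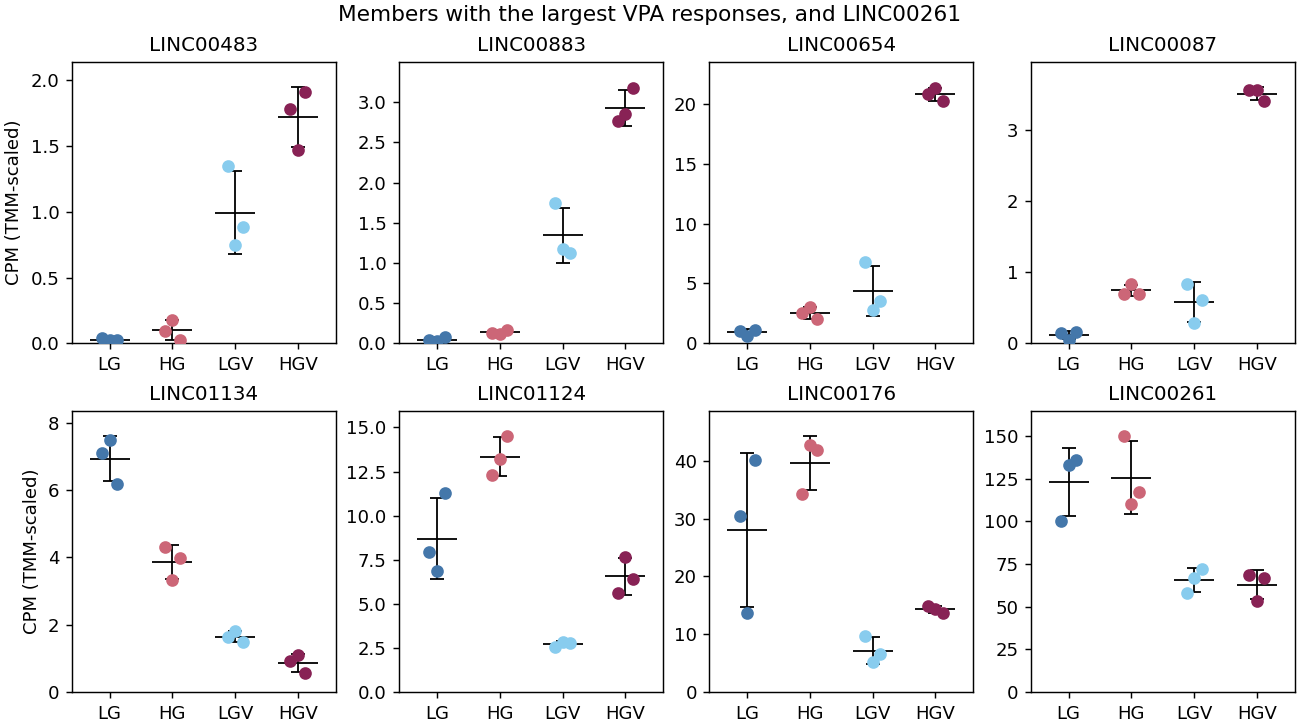
Each panel plots 1 member in CPM scaled with TMM factors (y axis, from 0) for the 4 groups (x axis), with a point per library and a bar and whiskers for the mean and SD of 3 libraries. LINC00483, LINC00883, LINC00654 and LINC00087 are highest in HGV, and LINC01134, LINC01124, LINC00176 and LINC00261 are lower in LGV and HGV than in the untreated group of the same medium.

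A list of 13 LINC genes with described roles in cells held 8 that had a row. LINC00261, also called DEANR1, lies next to FOXA2 and takes part in the differentiation of endoderm, from which the liver arises. It had 100.0, 133 and 136 CPM in LG and 58.2, 66.7 and 72.2 in LGV, and 150, 110 and 117 CPM in HG and 68.7, 53.2 and 66.6 in HGV. VPA lowered it by 0.90 in low glucose (log2 fold change -0.90, standard error 0.14, FDR 0.000135) and by 1.00 in high glucose (log2 fold change -1.0, standard error 0.14, FDR 8.3e-05), without overlap of ranges. LINC00338, or SNHG20, whose exons overlap SEC14L1, went from 23.8 ± 1.07 CPM (SD, n = 3) in LG to 15.0 ± 1.19 in LGV and from 27.0 ± 1.02 in HG to 13.1 ± 1.73 in HGV, with log2 fold changes of -0.66 (FDR 0.0012) and -1.04 (FDR 3e-05). LINC00152, or CYTOR, rose by 0.77 (FDR 0.00594) in low and 0.64 (FDR 0.00339) in high glucose. LINC01021, or PURPL, a target of p53, rose by 0.46 (FDR 0.0486) and 0.57 (FDR 0.0194). Its ranges overlapped, and its call was lost without any 1 of the LG replicates 1 and 3, the LGV replicates 1, 2 and 3, the HG replicates 2 and 3, or the HGV replicates 1 and 3, with FDR from 0.0514 to 0.201. LINC00657, LINC-PINT, LINC00467 and LINC00665 did not pass the test for VPA in either medium. Their log2 fold changes in high glucose were -0.30, -0.21, 0.25 and 0.91 (FDR 0.164, 0.283, 0.307 and 0.0572).

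Of 7 LINC genes known to encode a microprotein, 4 had a row. LINC00116 encodes mitoregulin of the inner mitochondrial membrane, and VPA lowered it in high glucose from 7.01, 8.7 and 9.24 CPM to 5.15, 5.8 and 5.47, by 0.60 on the log2 scale (FDR 0.00651, standard error 0.15). LINC00984 encodes INAFM2 and was higher with VPA in high glucose (log2 fold change 0.70, FDR 0.00622), at 4.06, 4.04 and 4.98 CPM in HG and 6.04, 8.61 and 6.62 in HGV. LINC00998 encodes SMIM30, a small integral membrane protein, and was higher with VPA in low glucose (log2 fold change 0.73, FDR 0.0149), although its call was lost without LG replicate 1 (FDR 0.0787) or LGV replicate 1 (0.0602). LINC00493 did not pass the test in any comparison, with log2 fold changes from -0.44 to -0.16. Among the 12 members now annotated as protein-coding, which include these 4, VPA raised 4 and lowered 3 of 11 tested in high glucose, and raised 4 and lowered 2 of 12 tested in low glucose. Among all genes tested, 46.1% and 41.6% were called in either direction. So few members cannot be told apart from these shares, and no test compared them.

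The effect of 20 mM glucose was compared without VPA (HG against LG) and with it (HGV against LGV). Without VPA, 104 LINC genes were tested, of which 28 were higher in HG (26.9%) and 3 were lower (2.88%). Among all 15452 genes tested, 12.0% were higher and 12.7% were lower, or 24.7% in either direction. Of the 28 members that were higher, 4 (LINC00087, LINC00652, LINC00957 and LINC00326) had a mean count under 10 in LG and so passed the filter only through HG, and none of the 3 lower members did so through LG. Of the 8 LINC genes not tested, LINC00311, LINC00649 and LINC00954 lay lower and LINC00337, LINC00883 and LINC00992 higher in every HG library than in every LG library. These ranges rest on few reads, for LINC00883 on 1, 1 and 3 in LG and 4, 4 and 6 in HG. The share of all genes with ranges apart is not given here, so nothing is concluded from them. With VPA, 31 of 107 LINC genes were higher in HGV (29.0%) and 9 were lower (8.41%), against 21.2% and 19.5% of all 16208 genes tested, or 40.7% in either direction. None of these 31 and 2 of these 9 passed the filter only through 1 group. The median log2 fold change of the LINC genes tested was 0.23 without VPA and 0.34 with VPA, and that of all genes 0.01 in both. With library size in place of TMM factors, 30 LINC genes were higher and 4 lower with VPA, and the median of all genes moved by 0.1 without VPA and by 0.09 with it. The shares of all genes called in that way are not given here.

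The level of a gene bears on such shares. Among genes between 1 and 10 CPM, 18 of 51 LINC genes were higher in HG (35.3%) and 1 was lower (1.96%), where all 4279 genes of that range gave 18.4% and 6.71%. Under 1 CPM, 8 of 34 LINC genes were higher (23.5%), where all genes gave 10.2%. At 10 CPM and over, 2 of 19 were higher and 2 were lower (10.5% each), where all genes gave 9.39% and 17.5%. With VPA, 13.9% of LINC genes under 1 CPM, 40.4% between 1 and 10 CPM and 26.3% at 10 CPM and over were higher in HGV, where all genes gave 17.7%, 29.7% and 18.1%. In the same ranges 8.33%, 5.77% and 15.8% were lower, where all genes gave 7.81%, 11.5% and 27.0%. Antisense RNAs, named by the ending AS and also mostly noncoding, showed shares of the same order, with 56 of 267 higher (21.0%) and 9 lower (3.37%) in HG and 94 of 275 higher (34.2%) and 19 lower (6.91%) in HGV. With VPA they gave 15.8% higher and 21.9% lower in high glucose and 6.49% and 19.8% in low glucose. Of the 13 snoRNA host genes, 1 was higher in HG, while VPA lowered 6 in high and 4 in low glucose. All of these were among the 11 host genes at 10 CPM and over. In that range VPA lowered 27.3% of all genes in high glucose and 27.8% in low glucose. No test compared these lists with the LINC genes.

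**Figure D4:**
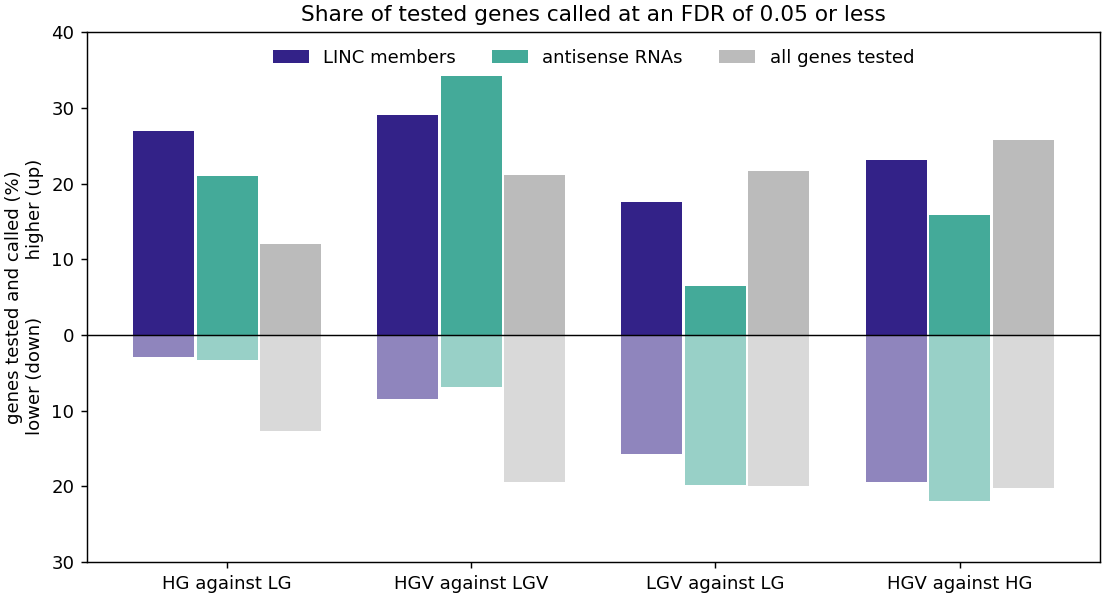
Bars give the percentage of tested genes called at an FDR of 0.05 or less (y axis) in the 4 comparisons (x axis), higher above 0 and lower, in paler colour, below 0, for LINC genes, antisense RNAs and all genes tested. For HG against LG the bar of LINC genes reaches 26.9% above and 2.88% below 0, while all genes reach 12.0% and 12.7%.

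The number of LINC genes called between HG and LG depended on single libraries. It was 31 in all, 13 without LG replicate 1, 16 without LG replicate 2, 36 without LG replicate 3, 17 without HG replicate 2 and 19 without HG replicate 3. With VPA it was 40 in all and 25 without LGV replicate 3. In each of these fits more LINC genes were higher than lower. The share of all genes called in the same fits is not given here. This dependence is therefore not shown to be particular to LINC genes.

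The 2 glucose comparisons share no libraries. In both, 18 members were higher, which is 64.3% of the 28 and 58.1% of the 31. These were LINC00087, LINC00242, LINC00263, LINC00339, LINC00494, LINC00528, LINC00574, LINC00638, LINC00652, LINC00654, LINC00663, LINC00669, LINC00854, LINC00870, LINC00920, LINC00957, LINC00998 and LINC01124. The 3 members lower in HG (LINC00511, LINC01128 and LINC01134) were also lower in HGV, where they made up 33.3% of the 9, and no member was called in opposite directions. Here too the overlap over all genes tested is not given, so the shares are not shown to be particular to LINC genes.

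LINC00087 showed the largest log2 fold change with glucose in both comparisons, 2.69 without VPA (standard error 0.44, FDR 0.000281) and 2.56 with VPA (standard error 0.30, FDR 5.59e-06). LINC00654 followed with VPA (log2 fold change 2.23, standard error 0.23, FDR 1.39e-06) and rose by 1.47 without it (standard error 0.28, FDR 0.00109). LINC00652 rose in HG by 1.96 (standard error 0.38, FDR 0.00117), from 0.262, 0.15 and 0.357 CPM to 1.05, 0.748 and 1.18. With VPA it had 1.08, 0.974 and 1.17 CPM in LGV and 1.84, 2.07 and 1.74 in HGV, a log2 fold change of 0.78 (FDR 0.0211) whose call was lost without LGV replicate 2 (FDR 0.0812) or 3 (0.0535). LINC01071 rose by 1.72 in HG (standard error 0.28, FDR 0.000283), from 0.823, 0.524 and 0.893 CPM in LG to 2.12, 2.33 and 2.77 CPM.

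Other members named for large glucose differences were LINC00491 (log2 fold change 1.52, FDR 0.00379), LINC00957 (log2 fold change 1.49, FDR 0.0217) and LINC00663 (log2 fold change 1.37, FDR 0.0123) in HG. In HGV they were LINC00638 (log2 fold change 1.75, FDR 0.00133), LINC00669 (log2 fold change 1.44, FDR 0.00608), LINC00954 (log2 fold change 1.41, FDR 0.00853) and LINC00663 (log2 fold change 1.31, FDR 0.00392). LINC00883, near absence without VPA, was higher in HGV than in LGV by 1.11 (standard error 0.25, FDR 0.00172). The call of LINC00957 in HG was lost without LG replicate 2 (FDR 0.0938), HG replicate 2 (0.068) or HG replicate 3 (0.0521). That of LINC00663 in HG was lost without LG replicate 1 (0.0698), LG replicate 2 (0.0575) or HG replicate 2 (0.0519), and that of LINC00954 without LGV replicate 3 (0.0566).

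LINC01134, LINC01128 and LINC00511 were lower in high glucose. LINC01134 had log2 fold changes of -0.82 without VPA (standard error 0.19, FDR 0.00516) and -0.94 with VPA (standard error 0.30, FDR 0.0173), the latter lost without HGV replicate 3 (FDR 0.0935) or LGV replicate 2 (0.0651). LINC01128, whose exons overlap LINC00115 on the other strand, had 15.2, 14.2 and 11.1 CPM in LG against 7.58, 8.37 and 8.34 in HG (log2 fold change -0.71, FDR 0.00626). With VPA it had 13.6, 16.6 and 14.6 CPM in LGV against 9.84, 9.18 and 10.1 in HGV (log2 fold change -0.64, FDR 0.00208). Its ranges were apart both times, though the call in HG was lost without LG replicate 1 (FDR 0.0566). LINC00511 had 41.8, 41.5 and 40.5 CPM in LG against 27.3, 31.2 and 32.9 in HG (log2 fold change -0.41, FDR 0.0319), and 40.9, 39.0 and 35.3 in LGV against 27.8, 32.9 and 26.4 in HGV (log2 fold change -0.42, FDR 0.0131). Its ranges were apart as well. The first of these calls held only without LG replicate 3 among the 6 fits that left out a library (FDR from 0.0607 to 0.1 in the other 5), and the second was lost without HGV replicate 1 (0.0547) or 3 (0.0648).

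LINC-PINT, a p53-induced RNA, was lower in HGV than in LGV, at 12.6, 10.8 and 12.9 CPM in LGV and 8.06, 6.28 and 6.71 in HGV (log2 fold change -0.81, standard error 0.16, FDR 0.000713). Without VPA its log2 fold change was -0.28 (FDR 0.248), and the difference between these values was not past the threshold of the interaction test given below. LINC00311 had 0.39, 0.974 and 0.721 CPM in LGV and 0.123, 0.143 and 0.323 in HGV (log2 fold change -1.83, FDR 0.0057). Its mean count in HGV was 7.0 and that of LINC00982 was 8.33, so both passed the filter only through LGV. LINC00649 (log2 fold change -1.17, FDR 0.0293) and LINC00982 (log2 fold change -1.35, FDR 0.0298) were called lower in HGV too, the former not without HGV replicate 2, HGV replicate 3 or LGV replicate 1 (FDR 0.0785, 0.0942 and 0.144), and the latter not without HGV replicate 1, HGV replicate 3 or LGV replicate 1 (FDR 0.107, 0.0503 and 0.166). LINC00657 was also called lower in HGV (log2 fold change -0.38, FDR 0.0474), but not without HGV replicate 2 (FDR 0.168), LGV replicate 2 (0.0924) or LGV replicate 3 (0.164). LINC00152 was called lower (log2 fold change -0.44, FDR 0.0468) and LINC00467 higher (log2 fold change 0.76, FDR 0.0377) in HGV than in LGV. The call of LINC00152 was lost without any 1 of the HGV replicates or LGV replicate 2 or 3 (FDR from 0.0521 to 0.212). That of LINC00467 was lost without HGV replicate 1 or 3 or LGV replicate 2 or 3 (FDR from 0.0633 to 0.207). Of the microprotein genes, LINC00998 was higher with glucose both without VPA (log2 fold change 0.96, standard error 0.21, FDR 0.00272) and with it (log2 fold change 0.60, standard error 0.17, FDR 0.0112), at 3.63, 3.99 and 5.64 CPM in LG, 7.51, 8.34 and 9.6 in HG, 8.61, 7.11 and 6.22 in LGV and 9.44, 13.2 and 10.9 in HGV. The call with VPA was lost without LGV replicate 3 (FDR 0.0789). LINC00116 was higher in HG (log2 fold change 0.58, FDR 0.0339), a call lost without LG replicate 1 (FDR 0.0703), LG replicate 2 (0.0841), HG replicate 2 (0.112) or HG replicate 3 (0.144).

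**Figure D5:**
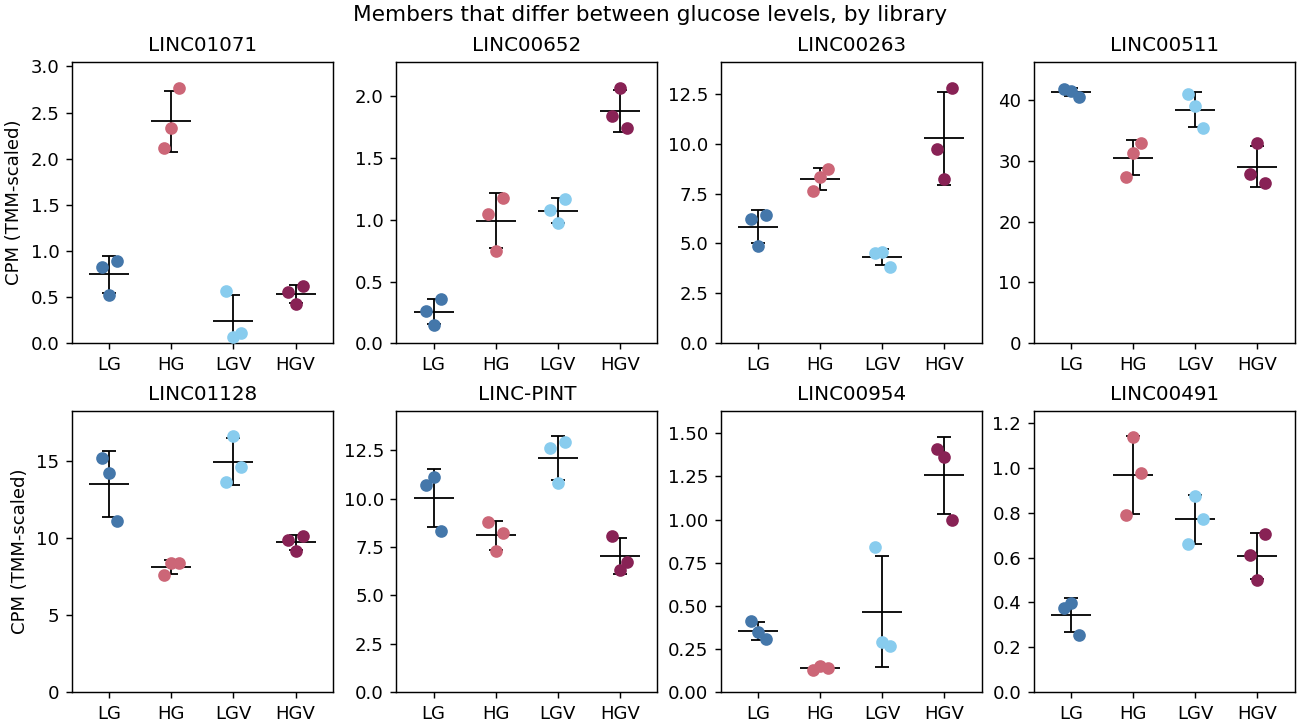
Each panel plots 1 member in CPM scaled with TMM factors (y axis, from 0) for the 4 groups (x axis), with a point per library and a bar and whiskers for the mean and SD of 3 libraries. LINC00652 and LINC00263 are higher, and LINC00511 and LINC01128 lower, in HG and HGV than in LG and LGV respectively, and LINC00954 is lowest in HG and highest in HGV.

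Some members lie close to a protein-coding gene. For 12 members the start lay within 1 kb of the start of a protein-coding gene on the opposite strand. The nearest protein-coding gene by start was itself tested for 79 to 85 members, depending on the comparison. Between HG and LG, 6 members and their neighbours were both higher, 1 pair was lower and no pair was called in opposite directions. Between HGV and LGV, 10 pairs were both higher, 1 was both lower and 4 were opposite. With VPA, 5 pairs were both higher, 2 both lower and 6 opposite in high glucose, and 3, 7 and 3 in low glucose. Neighbour starts lay up to 2154913 bases away. Within 100 kb, 5 pairs were both higher, 1 both lower and 0 opposite between HG and LG. Between HGV and LGV these were 10, 1 and 2, and with VPA in high glucose 3, 2 and 3. In low glucose 0 were both higher, 7 both lower and 1 opposite each way. LINC00242 and LINC00574 share the neighbour ERMARD, which is counted for both. Shares over other gene pairs are not given here.

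LINC01134 starts 54 bases from C1orf174 on the opposite strand. C1orf174 was also lower in HG (log2 fold change -0.52, standard error 0.15, FDR 0.0184) and in LGV (log2 fold change -0.40, standard error 0.14, FDR 0.0334), but its log2 fold change was -0.01 in HGV against HG (FDR 0.932), where LINC01134 fell by 2.16. LINC01124 starts 770 bases from SP5, a transcription factor gene of the WNT pathway. SP5 was lower in LGV (log2 fold change -0.76, standard error 0.14, FDR 0.000507) and higher in HGV than in LGV (log2 fold change 0.47, standard error 0.15, FDR 0.0196), as LINC01124 was. Between HGV and HG, SP5 had a log2 fold change of -0.19 (FDR 0.265), and between HG and LG of -0.07 (FDR 0.722). LINC01124 was higher in HG by 0.64 (FDR 0.0199), a call lost without LG replicate 1 (FDR 0.0894), LG replicate 2 (0.0634) or HG replicate 3 (0.0867).

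LINC-PINT starts 80 bases from MKLN1, and their exons overlap on opposite strands. MKLN1 was lower in HGV than in LGV by a log2 fold change of -1.31 (FDR 2.86e-06, standard error 0.14), at mean levels of 98.7 and 40.4 CPM, and lower in HG (log2 fold change -1.03, FDR 0.000408). LINC00261 starts 6813 bases from FOXA2, a transcription factor of the liver, on the same strand. FOXA2 had mean levels of 77.3 CPM in LG, 71.4 in HG, 68.6 in LGV and 60.6 in HGV. With VPA its log2 fold changes were -0.24 in high glucose (standard error 0.11, FDR 0.1) and -0.16 in low glucose (standard error 0.13, FDR 0.344), beside -1.0 and -0.90 for LINC00261.

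LINC00263, now named OLMALINC, starts 25866 bases from SCD, which encodes stearoyl-CoA desaturase of fatty acid synthesis. LINC00263 had 6.21, 4.89 and 6.43 CPM in LG, 7.64, 8.31 and 8.71 in HG, 4.53, 4.58 and 3.84 in LGV, and 9.72, 8.25 and 12.8 in HGV. It was higher with glucose by 1.23 with VPA (standard error 0.19, FDR 7.9e-05), and by 0.52 without it (standard error 0.18, FDR 0.0469). The latter call was lost without any 1 library other than LG replicate 3 (FDR from 0.0574 to 0.153). SCD was higher by 0.46 without VPA (standard error 0.12, FDR 0.0108) and by 0.53 with it (standard error 0.13, FDR 0.00288). For both genes the groups were higher in high glucose. LINC01137, now ZC3H12A-DT, starts 148 bases from ZC3H12A, which encodes an RNase. VPA raised LINC01137 by 2.18 in high glucose (FDR 1.81e-05) and 1.33 in low glucose (FDR 0.00637), and ZC3H12A by 0.52 in high glucose (standard error 0.13, FDR 0.00684), with 0.37 in low glucose (FDR 0.154). Glucose lowered ZC3H12A (-0.80 without VPA, FDR 0.00264), while LINC01137 had -0.17 (FDR 0.749).

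LINC00242 (chromosome 6, 170188886 to 170199645, minus strand) and LINC00574 (170190133 to 170202969, plus strand) overlap on opposite strands and were chosen for this description after their values were seen. LINC00242 had 4.86, 4.17 and 5.72 CPM in LG, 9.8, 9.93 and 11 in HG, 2.46, 1.95 and 2.0 in LGV, and 3.96, 4.33 and 3.82 in HGV. LINC00574 had 2.21, 1.22 and 2.6 CPM in LG, 3.77, 3.83 and 3.42 in HG, 0.87, 0.714 and 0.694 in LGV, and 2.18, 1.52 and 2.0 in HGV. Both were higher with glucose, by 1.08 and 0.90 without VPA (FDR 0.000404 and 0.0173) and by 0.90 and 1.30 with VPA (FDR 0.0024 and 0.00151). Both were lower with VPA, with log2 fold changes of -1.34 and -0.96 in high glucose (FDR 9.73e-06 and 0.00161) and -1.19 and -1.39 in low glucose (FDR 0.00061 and 0.0033). Without a stated use of strand, their reads cannot be told apart where the exons overlap.

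Whether the response to VPA differed between the media was tested with the interaction term of 1 fit over the 12 libraries. By edgeR 0 of 112 LINC genes passed at an FDR of 0.05, where 7 of all 16389 genes did (0.0427%). An unadjusted p under 0.05 by edgeR was reached by 9 of the 112 LINC genes and by 1852 of all 16389 genes, so the 9 are no sign of an excess among LINC genes. The Wald test of DESeq2 called 1 LINC gene, LINC00954, and its number of calls over all genes is not given here. The smallest p belonged to LINC00954 and LINC00491. LINC00954 had 0.411, 0.349 and 0.306 CPM in LG, 0.127, 0.15 and 0.14 in HG, 0.84, 0.292 and 0.267 in LGV, and 1.41, 1.36 and 1.0 in HGV. Its log2 fold change with VPA was 3.14 in high glucose and 0.41 in low glucose (FDR 0.524), and the interaction was 2.74 (standard error 0.63, FDR 0.078). LGV replicate 1 stood apart from the other LGV libraries, and without it LINC00954 passed the test. LINC00491 had 0.374, 0.399 and 0.255 CPM in LG, 0.792, 1.14 and 0.98 in HG, 0.66, 0.877 and 0.774 in LGV, and 0.613, 0.499 and 0.706 in HGV. VPA raised it in low glucose (log2 fold change 1.18, FDR 0.0158, lost without LG replicate 3 or LGV replicate 2 with FDR 0.0603 and 0.0586), with a log2 fold change of -0.69 in high glucose (FDR 0.0701). Its interaction was -1.85 (standard error 0.45, FDR 0.0983), and it passed the test without LG replicate 2. The third smallest p was that of LINC00263, with an interaction of 0.75 (standard error 0.26, FDR 0.249).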

How the data were processed

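HepG2 libraries of poly(A)-selected RNA (3 each for LG, HG, LGV and HGV) were sequenced as 50 nt single-end reads. The authors trimmed the reads, aligned them with STAR to GRCh37, used featureCounts with Ensembl 75 genes, and deposited raw counts without normalization for 16389 genes with an average of at least 10 reads per library. Strand settings are not given in the sources used here.

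Differences were tested in R 4.3.3 with edgeR 4.0.16 (TMM factors, quasi-likelihood F test, mean count of at least 10 in the libraries compared, Benjamini-Hochberg adjustment over all genes tested, FDR of 0.05 or less). Each comparison was fitted with its own libraries and the interaction with all 12. Fitted log2 fold changes used a prior count of 0.125. The test was checked on simulated data. Alternatives were DESeq2 1.42.0 and its size factors, library size only, other filters, an FDR of 0.01, 1 fit of all libraries, a replicate block, members without exon overlap, and leaving out each library in turn. Positions, lengths and overlaps came from GENCODE 44 on GRCh37, and promoter sequence from the GRCh37 genome.

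The LINC genes and the lists beside them were chosen with earlier results of these data known. The members named were the 6 with the largest called change in each direction and comparison, the 10 highest per kb, the 3 with the smallest interaction p, those of the 2 role lists, and the nearest protein-coding genes. For libraries with the same replicate number in the groups compared, the correlation of deviations from the group means ran from -0.255 to 0.382, and no comparison had all 3 above 0.1, so the number was not taken as a pairing. Leukocyte markers and the promoter sequence of some members are not reported here.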

Additional observations from a re-analysis of the deposited data

Results flagged for a closer look

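LINC00954 and LINC00491 were singled out because every library moved one way under one condition and the opposite way under the other. The interaction of glucose and VPA was 2.74 on the log2 scale for LINC00954 (standard error 0.63, unadjusted p = 0.000314 and FDR 0.078 by edgeR). HG libraries of LINC00954 all lay below the LG libraries, and all HGV libraries lay above all LGV libraries. For LINC00491 the interaction was -1.85 (standard error 0.45, unadjusted p = 0.000529 and FDR 0.0983 by edgeR), and VPA libraries lay above the untreated ones in low glucose and below them in high glucose. Neither interaction passed after adjustment over all genes tested.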

How the results depend on the processing

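Of 91 results on named LINC genes, none changed direction in 1264 checks with an alternative. The call was lost in 160 of these checks, 100 of them with 1 library left out and 29 at an FDR of 0.01. An FDR of 0.01 is only a stricter threshold on the same fit and cannot change a direction. Apart from the interactions, the results were already called in these libraries, which the checks reuse. A kept direction was therefore likely from the start. With 1 library left out, the number of LINC genes called ranged from 13 to 36 for HG against LG (31 with all libraries), from 40 to 48 for HGV against HG (46), from 28 to 39 for LGV against LG (36), from 25 to 50 for HGV against LGV (40) and from 0 to 1 for the interaction (0). At an FDR of 0.01 it was 13 for HG against LG and 25 for HGV against LGV. Among members without exon overlap it was 13, 27, 20 and 17 in the order above. Of the 110 placed members, 52 were without such overlap. The share of them called is not given, and whether overlap bears on the calls was not tested. The Wald test of DESeq2 called 1 in the interaction. The replicate numbers were not taken as a pairing, a question that 3 correlations per comparison cannot settle. With the replicate block 28, 49, 41, 50 and 0 LINC genes were called. Calls over all genes in these alternatives are not given, so the changes in number are not shown to be particular to LINC genes. Depth limits the 41 members under 1 CPM most, for which a few reads per library set the values.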
